A study of Mus musculus with 6 samples.

Results

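The genes described here are 10 nuclear receptors of the mouse, chosen by name: Nr0b1, Nr5a2, Nr2f1, Nr2f2, Nr2f6, Nr6a1, Nr3c1, Nr1h2, Nr2c1 and Nr1d2. Gene symbols were at hand only for probes in the authors' value table, which holds 18312 of the 45281 probes measured, those that 1 array or more detected at p-values under 0.01. Of these, 15550 have 1 symbol, and 10 probes of 6 of the genes are among them. Nr0b1, Nr2f1, Nr3c1 and Nr1h2 have no probe named here and are not analysed. Their probes may have been undetected, may have no symbol or may be missing from the array, which cannot be told apart here, and further undetected probes of the other 6 genes could not be named either. Total RNA was read on 1-colour Illumina bead arrays, 3 from an immortalized line of the anterior limb of E10.5 mouse embryos and 3 from one of the posterior limb. The labels describe both lines as mesenchyme, and both express a temperature sensitive SV40 T antigen, which is of viral origin and lets cells go on dividing. Each position is given by 1 line, so position and line cannot be told apart, and no label says that the arrays of a line came from separate cultures. The p-values therefore reflect only how these samples spread, and that spread may be technical.

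Nuclear receptors are transcription factors, most of which bind DNA through zinc fingers and carry a pocket for a small lipophilic ligand. In steroid receptors such as Nr3c1, the glucocorticoid receptor, a hormone fills the pocket and releases the protein from its chaperones. For orphan receptors no physiological ligand was known when they were named, and many of them bind the half-site AGGTCA as single proteins or in pairs. Several are known from early embryos and stem cells: Nr5a2 (LRH-1) activates Pou5f1 in mouse embryonic stem cells, and Nr6a1 (GCNF) represses it as they differentiate.

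Promoter windows are shown because the half-site AGGTCA is an element that many orphan receptors bind, and to place some of the genes with a called probe. Windows for 9 of the 10 genes, 12 in all, were taken from RefSeq on build GRCm38.p6 and hold the 250 bases before an annotated start, read 5′ to 3′ on the strand of the gene. Capitals mark AGGTCA, or TGACCT where it lies on the other strand. The windows of Nr5a2, Nr6a1 and Nr1d2 that hold a match are printed, with that of Nr2f2, which holds none. Nr2f6 also has a called probe, but its window, which holds no AGGTCA, is not printed. They were chosen after matches and array values had been seen. The Nr5a2 window lies at chr1:136960449-136960698, that of Nr6a1 at chr2:38784516-38784765, that of Nr1d2 at chr14:18239107-18239356 and that of Nr2f2 at chr7:70366747-70366996, all on the minus strand.
Nr5a2: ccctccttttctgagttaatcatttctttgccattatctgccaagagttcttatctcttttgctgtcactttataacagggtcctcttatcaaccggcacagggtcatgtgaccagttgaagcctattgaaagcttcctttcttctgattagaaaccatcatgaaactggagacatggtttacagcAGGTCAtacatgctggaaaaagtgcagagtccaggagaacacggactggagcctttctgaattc
Nr6a1: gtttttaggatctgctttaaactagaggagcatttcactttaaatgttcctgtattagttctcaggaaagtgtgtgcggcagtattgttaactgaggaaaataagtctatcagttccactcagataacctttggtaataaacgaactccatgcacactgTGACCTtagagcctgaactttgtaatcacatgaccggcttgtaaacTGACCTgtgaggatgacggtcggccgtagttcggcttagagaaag
Nr1d2: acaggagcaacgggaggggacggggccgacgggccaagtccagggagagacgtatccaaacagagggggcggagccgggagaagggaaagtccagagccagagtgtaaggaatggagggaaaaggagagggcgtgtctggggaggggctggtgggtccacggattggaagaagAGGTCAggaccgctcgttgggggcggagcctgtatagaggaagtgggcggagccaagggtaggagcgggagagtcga
Nr2f2: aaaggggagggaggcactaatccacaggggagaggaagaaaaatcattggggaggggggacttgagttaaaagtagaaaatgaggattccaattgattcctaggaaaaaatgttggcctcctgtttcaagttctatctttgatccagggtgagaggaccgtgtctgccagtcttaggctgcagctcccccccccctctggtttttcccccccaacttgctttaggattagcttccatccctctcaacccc

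In the Nr5a2 window AGGTCA began 64 bases before the start. In that of Nr1d2 it began 77 bases before it. The Nr6a1 window held 2 matches on the other strand, beginning 91 and 45 bases before the start. Among the windows not printed, that of Nr0b1 held 1 match 126 bases before the start, and the others held none. These others include a further window each of Nr5a2 and Nr6a1, at a different start. AGGTCA on either strand was found in 14.0% of all 32851 windows of this length. The other motifs searched were TCAAGGTCA, which contains AGGTCA, with the GC box GGGCGG, the TATA box TATAAA and the octamer ATGCAAAT. TCAAGGTCA, found in 0.387% of all windows, and ATGCAAAT, found in 1.60%, matched none of the 12. GGGCGG, found in 32.7%, matched 7 times in the Nr2f6 window, 3 times in that of Nr1d2 and 1 time in a window of Nr2f1. TATAAA, found in 12.4%, matched 1 time each in windows of Nr0b1 and Nr5a2. The Nr0b1 match lay on the strand of the gene and began 32 bases before the start. That of Nr5a2 lay on the other strand, beginning 181 bases before the start. A match describes these letters and is not a binding site.

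Between 16052 and 18657 probes were detected on an array, at a detection p-value under 0.05. Arrays of 1 line correlated at 0.971 to 0.989 across tested probes, and arrays of different lines at 0.882 to 0.905. Of 17 limb mesenchyme markers listed, 7 had a named probe, and the other 10 could not be checked. Of the 7, 3 were detected on every anterior array, namely Msx1, Twist1 and Fgf10. Tbx4 was detected on 1 anterior array, and Pdgfra, Twist2 and Alx4 on none. All 7 were detected on every posterior array, but naming and testing require detection on some array, so Pdgfra, Twist2 and Alx4 could enter only through that line. The summed level of these markers, as linear normalized intensity less the offset, was 85.7 to 116 on anterior arrays and 350 to 645 on posterior arrays. All 13 pluripotent cell markers were detected on every anterior array, and 9 of them on every posterior array. Fgf4, Tdgf1 and Otx2 were detected on no posterior array, so they could enter only through the anterior line. The summed level of the 13 was 41410 to 42900 on anterior arrays, against 10780 to 16250 on posterior arrays. Dppa5a alone made up 20700 to 21200 and 9930 to 15000 of these sums, and without it the other 12 markers summed to 20300 to 21900 on anterior and 846 to 1240 on posterior arrays. The lines are called anterior and posterior below as their labels have it.

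Levels are normalized log2 intensities with the mean ± SD of a line's 3 arrays, and differences are posterior minus anterior with the standard error (SE) of the limma fit. A probe was tested if it was detected on at least 3 of the 6 arrays, and called at an adjusted p under 0.05 after Benjamini-Hochberg adjustment over all 18242 tested probes. Of the 10 probes 9 were tested. Of these, 6 were called, 3 higher and 3 lower in the posterior line, beside 42.6% of all tested probes called, 21.2% higher and 21.4% lower. Nr2f2 probe ILMN_3163196 and Nr5a2 probe ILMN_2813203 passed the detection filter only through the line where they are high, so the count is a description. With detection on at least 1 array of each line required, 4 of 7 probes were called, 2 higher and 2 lower, beside 36.8% of all probes tested that way. The groups did not overlap for 6 of the 9, beside 54.0% of all tested probes. The median size of the difference was 0.97 for the 9 probes and 0.40 for all tested probes. By their called probes, Nr5a2 and Nr1d2 were lower in the posterior line, and Nr2f2, Nr2f6 and Nr6a1 were higher. Nr5a2 probe ILMN_2751680 and Nr2f6 probe ILMN_1215135 were tested and not called. Levels of different probes are not compared, since each probe has its own brightness.

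**Figure D1:**
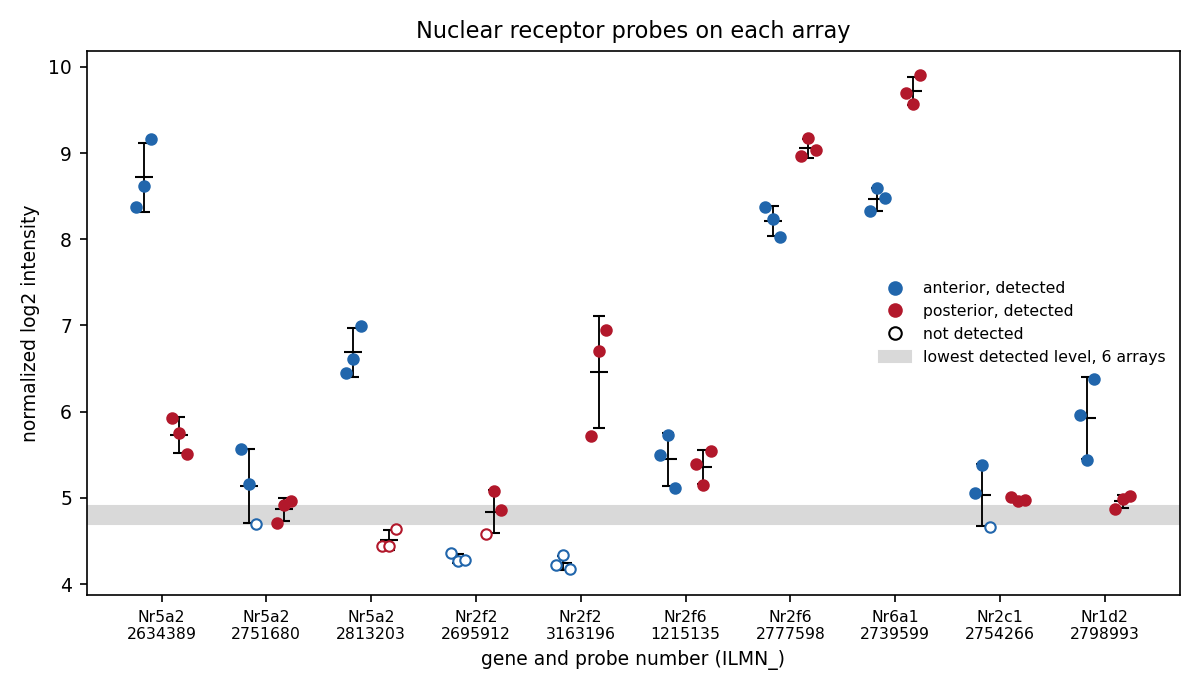
Normalized log2 intensity of each of the 10 probes on the 3 anterior (blue) and 3 posterior (red) arrays, with the mean and SD of each group as bars. Open points were not detected, and the grey band spans the lowest detected level of the 6 arrays, 4.70 to 4.91.

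Nr5a2 has 3 probes, and 2 of them were lower in the posterior line. For probe ILMN_2634389 the anterior arrays read 8.38, 8.61 and 9.16 and the posterior arrays 5.93, 5.75 and 5.51. Every anterior array lay above every posterior array, and the probe was detected on all 6. The level was 8.72 ± 0.40 (SD, n = 3) in the anterior and 5.73 ± 0.21 (SD, n = 3) in the posterior line. The difference was -2.99 (SE 0.22, limma adjusted p = 1.88e-05), or 7.94-fold lower.

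For Nr5a2 probe ILMN_2813203 the anterior arrays read 6.45, 6.62 and 6.99 and the posterior arrays 4.45, 4.44 and 4.64. All 3 anterior arrays detected it and no posterior array did, so the posterior level is only a bound. The measured means were 6.69 ± 0.28 and 4.51 ± 0.12 (SD, n = 3 each), at least 3.88-fold lower in the posterior line. The fit gave -2.18 (SE 0.17, limma adjusted p = 2.62e-05), for a probe that was tested through its anterior detection alone. "At least" sets the brighter mean against, for each array of the dim line, the higher of the lowest detected level and the probe's own. Without background correction this difference was -1.18, and in the authors' values -1.23. Both were smaller in size than the bound, which was -1.96 on the log2 scale. A fold given as at least, here and below, therefore holds for the reported processing only.

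The remaining Nr5a2 probe, ILMN_2751680, lay near the detection limit. It read 5.56, 5.16 and 4.70 on the anterior arrays and 4.71, 4.92 and 4.97 on the posterior arrays, and the anterior array at 4.70 did not detect it. The groups overlapped. The difference was -0.27 (95% confidence interval -0.77 to 0.22, limma adjusted p = 0.344), so the probes of Nr5a2 disagree in their call. Averaged over its 3 probes, Nr5a2 differed by -1.81.

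Nr2f2 (COUP-TFII) is known as a regulator of venous identity and of mesenchyme in embryos. Probe ILMN_3163196 read 4.22, 4.33 and 4.17 on the anterior arrays, none of which detected it. The posterior arrays read 5.72, 6.70 and 6.95 and all detected it. The measured means were 4.24 ± 0.08 and 6.46 ± 0.65 (SD, n = 3 each), at least 3.09-fold higher in the posterior line. The fit gave 2.22 (SE 0.29, limma adjusted p = 0.000418), for a probe that was tested through its posterior detection alone. The value was 1.35 without background correction and 1.28 in the authors' values. Both were under the bound, which was 1.63 on the log2 scale. The other probe of Nr2f2, ILMN_2695912, was detected on 2 posterior arrays and was not tested. It read 4.36, 4.26 and 4.28 on the anterior and 4.58, 5.08 and 4.86 on the posterior arrays, without overlap and close to the lowest detected levels.

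Nr2f6 (EAR2) is a relative of Nr2f2. Probe ILMN_2777598 read 8.37, 8.23 and 8.03 on the anterior and 8.96, 9.17 and 9.03 on the posterior arrays, with no overlap and detection on all 6. The level rose from 8.21 ± 0.17 to 9.05 ± 0.11 (SD, n = 3 each), a difference of 0.84 (SE 0.14, limma adjusted p = 0.00193), or 1.80-fold. Probe ILMN_1215135, also detected on all 6 arrays, read 5.49, 5.73 and 5.11 against 5.39, 5.15 and 5.54. These groups overlapped, and the difference was -0.08 (95% confidence interval -0.52 to 0.35, limma adjusted p = 0.750). Averaged over both probes, Nr2f6 differed by 0.38 and was no longer called (limma adjusted p = 0.0614).

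Nr6a1, known as a repressor of pluripotency genes, was higher in the posterior line. Its probe ILMN_2739599 read 8.33, 8.59 and 8.47 on the anterior arrays and 9.69, 9.57 and 9.90 on the posterior arrays. Every posterior array lay above every anterior array. The level was 8.47 ± 0.13 in the anterior and 9.72 ± 0.17 in the posterior line (SD, n = 3 each). The difference was 1.26 (SE 0.15, limma adjusted p = 0.000245), or 2.39-fold. The deposited intensities, before normalization, were 287, 481 and 359 against 1038, 795 and 924.

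Nr1d2 (REV-ERB beta) is a repressor of the circadian clock. Probe ILMN_2798993 read 5.96, 5.44 and 6.38 on the anterior and 4.87, 4.98 and 5.02 on the posterior arrays, without overlap and with detection on all 6. The level was 5.93 ± 0.47 and 4.96 ± 0.08 (SD, n = 3 each), a difference of -0.97 (SE 0.22, limma adjusted p = 0.00835), or 1.96-fold lower. The posterior values lie just above the lowest detected levels. The difference was -0.49 without background correction and -0.51 in the authors' values.

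Nr2c1 (TR2) is an orphan receptor known for repressing embryonic globin genes. Probe ILMN_2754266 read 5.06, 5.38 and 4.66 on the anterior and 5.01, 4.96 and 4.98 on the posterior arrays, and the anterior array at 4.66 did not detect it. The groups overlapped, with a difference of -0.05 (95% confidence interval -0.47 to 0.38, limma adjusted p = 0.853).

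**Figure D2:**
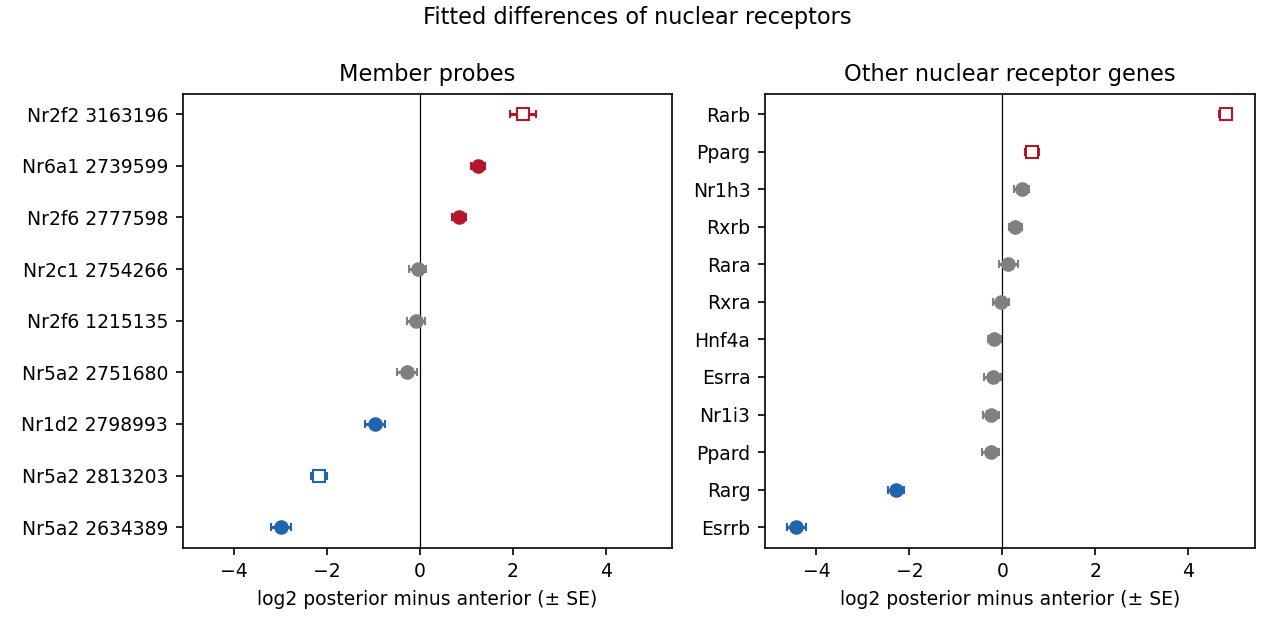
Fitted log2 difference, posterior minus anterior, with its SE, for the 9 tested probes (left, with probe numbers) and for the 12 other nuclear receptor genes tested (right). Red was called higher, blue lower and grey not called, and open squares mark probes detected on no array of 1 line. Differences run from -2.99 to 2.22 on the left and from -4.43 to 4.81 on the right.

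Other nuclear receptors were described as genes, each by its brightest tested probe. Among all 9908 genes tested this way, 25.9% were higher in the posterior line and 21.5% lower, and the median difference was 0.03. Of 39 receptors listed 12 were tested, of which 2 were higher, 2 lower and 8 not called, with a median of -0.10. Rarb, a retinoic acid receptor, was detected on no anterior array and was at least 19.8-fold higher in the posterior line (limma adjusted p = 4.21e-07). Pparg, a regulator of fat cell genes, was also detected on no anterior array and was at least 1.13-fold higher (limma adjusted p = 0.00958). In the authors' values the fitted difference of Pparg was 0.26 instead of 0.64 and was not called (limma adjusted p = 0.0623). With detection required in both lines, 0 receptors were higher and 2 lower of 10, since Rarb and Pparg were then not tested. Of all probes, not genes, tested that way 36.8% were called in either direction. The orphan receptor Esrrb, known from embryonic stem cells, fell by 4.43 (SE 0.20, limma adjusted p = 1.92e-06). Rarg, another retinoic acid receptor, fell by 2.29 (SE 0.17, limma adjusted p = 2.04e-05). The 8 not called had differences of 0.42 for Nr1h3, 0.28 for Rxrb, 0.13 for Rara, -0.02 for Rxra, -0.17 for Hnf4a, -0.21 for Esrra, -0.24 for Nr1i3 and -0.25 for Ppard. Of these, Rxra, Esrra and Ppard changed sign when arrays were scaled to a common median.

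**Figure D3:**
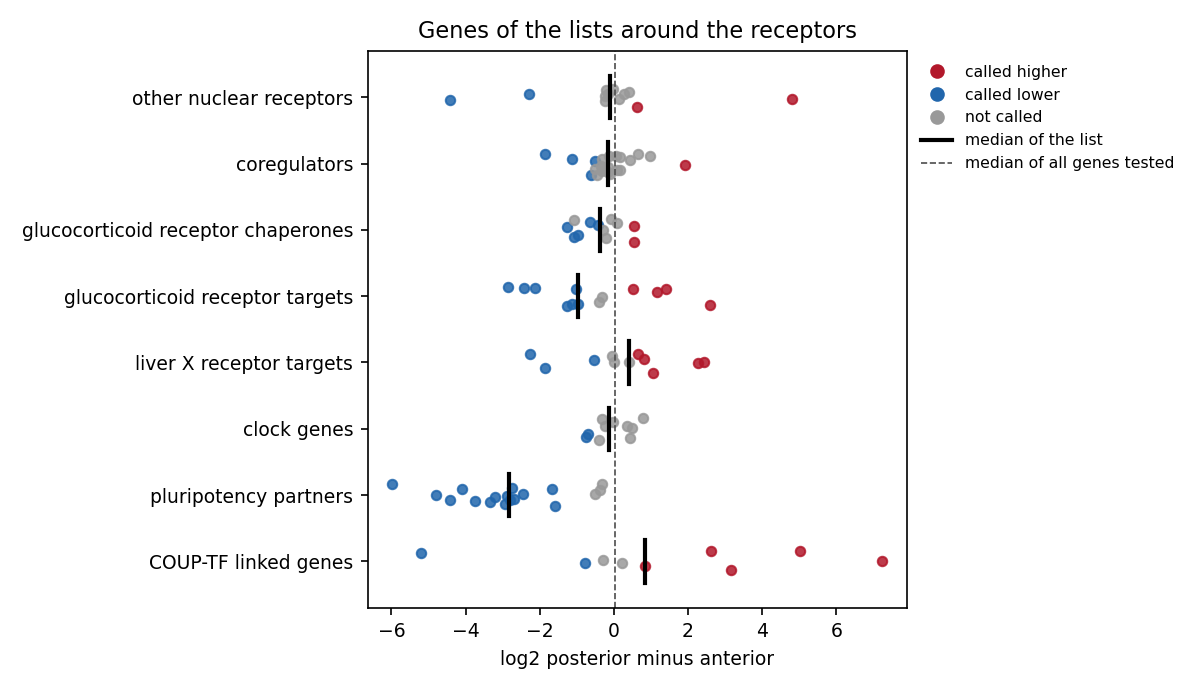
Log2 difference, posterior minus anterior, of each tested gene of 8 lists, 1 point a gene, with vertical scatter for display only. The bar is the median of the list and the dashed line the median of all genes tested, 0.03. The points of the pluripotency partners lie to the left of the line, with a median of -2.84.

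Of 18 tested genes listed here as pluripotency partners, 15 were lower in the posterior line. Of the others 0 were higher and 3 not called, beside 25.9% of all genes tested higher and 21.5% lower. The median of the list was -2.84. Whether each gene of the list acts with Nr5a2, Nr0b1 or Nr6a1 was not tested. Fgf4, Prdm14 and Tdgf1 were detected on no posterior array and so entered through the anterior line alone. Over the alternatives that keep all arrays, some of which do not test these genes, 11 to 16 genes of the list were called. With the genes detected on no array of 1 line set at their bound, the median was -2.77. Tcl1 fell by 5.98, Pou5f1 fell by 4.80 and Esrrb fell by 4.43 on the log2 scale (limma adjusted p = 1.56e-07, 1.75e-06 and 1.92e-06). The pluripotent cell markers, which share genes with this list, were lower in 12 of 13. Fgf4, Tdgf1 and Otx2 among them entered through the anterior line alone. Over the same alternatives 8 to 12 of these markers were called. How far the difference in Nr5a2 and Nr6a1 goes with these markers was not tested.

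Genes listed as linked to the COUP-TF receptors Nr2f1 and Nr2f2 were higher in 5, lower in 2 and not called in 2 of 9 tested. Their median was 0.84. Among all genes tested, 25.9% were higher and 21.5% lower. With detection required in both lines, 2 COUP-TF linked genes were higher and 1 lower of 5. Of all probes, not genes, tested that way 36.8% were called in either direction. Cyp26a1, which breaks down retinoic acid, was higher by 7.24 on the log2 scale (limma adjusted p = 3.35e-07). Sox9, a cartilage regulator, was at least 22.5-fold higher, and the receptor gene Nrp1 at least 6.95-fold higher, each detected on no anterior array. Otx2, a head and stem cell regulator, was at least 28.0-fold lower and detected on no posterior array. Notch1 fell by 0.77 (limma adjusted p = 0.0233). With arrays scaled to a common median the Notch1 difference was -0.49 and was not called (limma adjusted p = 0.203), and the call was also lost with no detection filter, with array weights, and without anterior replicate 2 or 3 or posterior replicate 1 or 3.

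Targets of the glucocorticoid receptor Nr3c1 moved in both directions, with 4 higher, 7 lower and 2 not called of 13 tested and a median of -0.97. Of the 7 lower, 1 was detected on no posterior array and so entered through the anterior line alone. Among all genes tested, 25.9% were higher and 21.5% lower. Errfi1 was higher by 2.58, Tsc22d3 by 1.41 and Cdkn1c by 1.16, while Sgk1 fell by 2.85, Klf9 fell by 2.42 and Mt2 fell by 2.14. The chaperones of this receptor were higher in 2, lower in 5 and not called in 5 of 12, with a median of -0.37. Bag1 was higher by 0.55 and Dnajb1 by 0.54. Fkbp5, which is also on the target list, fell by 1.26, Hspa4 fell by 1.08 and Ptges3 fell by 0.97. Bag1, Dnajb1 and Ptges3 lost the call when arrays were scaled to a common median. Bag1 also lost it without posterior replicate 2, and Dnajb1 without posterior replicate 2 or 3.

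Targets of the liver X receptors, among them Nr1h2, were higher in 5, lower in 3 and not called in 3 of 11, with a median of 0.42. Of the 5 higher, 1 was detected on no anterior array and so entered through the posterior line alone. Among all genes tested, 25.9% were higher and 21.5% lower. The fatty acid desaturases Scd2 and Scd1 were higher by 2.43 and 2.28 and the acyltransferase Lpcat3 by 1.06. The apolipoprotein Apoe fell by 2.27 and the lipid transfer protein Pltp fell by 1.86. Abcg1, a cholesterol exporter, fell by 0.53 (limma adjusted p = 0.0491) and lost the call under 11 alternatives. Clock genes, the setting of Nr1d2, were lower in 2 and not called in 8 of 10, with a median of -0.13. Bhlhe40 fell by 0.74 and Arntl fell by 0.69. Bhlhe40 lost the call with no detection filter, and without anterior replicate 2 or posterior replicate 1 or 2. Neither gene was called when arrays were scaled to a common median. Under that scaling the calls turned, with 2 clock genes higher and 0 lower: Csnk1d by 0.64 (limma adjusted p = 0.0441) and Tef by 0.72 (limma adjusted p = 0.0382), both named after their values were seen.

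Coregulators, which receptors recruit to chromatin, were higher in 1, lower in 4 and not called in 17 of 22, with a median of -0.16. Among all genes tested, 25.9% were higher and 21.5% lower. Ncoa6 was higher by 1.92 (limma adjusted p = 4.70e-05). Ppargc1b fell by 1.85 and Trim28 fell by 0.62, and Bcl11b was at least 1.89-fold lower and detected on no posterior array.

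Markers of other cell types also differed between the lines. Among all genes tested, 25.9% were higher in the posterior line and 21.5% lower. Of the endoderm markers 4 were tested, of which 3 were detected on no anterior array and so entered through the posterior line alone. Gata6 was at least 13.4-fold higher, Sox17 at least 4.18-fold higher and Sox7 higher by 2.03 on the log2 scale. With detection required in both lines 1 endoderm marker was tested, Sox7, and called higher. Their summed level was 22.0 to 31.3 on anterior and 378 to 948 on posterior arrays. Of 6 epithelial markers 3 were higher, Krt18 by 4.30, Krt8 by 3.68 and Krt19 at least 7.88-fold, and 2 lower, with differences of -1.96 for Grhl2 and -1.44 for Esrp1. Krt19 was detected on no anterior array and so entered through the posterior line alone. Of 4 endothelial markers 1 was higher, Flt1 at least 2.80-fold, and 2 lower, Pecam1 with a difference of -3.02 and Vwf at least 3.42-fold. Flt1 was detected on no anterior array and Vwf on no posterior array, so each entered through 1 line alone. Of 3 neural markers 2 were higher, Nes by 2.09 and Map2 by 0.70. Of the 7 limb mesenchyme markers 6 were higher, or 3 of 4 with detection required in both lines, with Msx1 by 2.10, Pdgfra at least 3.03-fold and Twist1 by 1.55. With detection required in both lines, 36.8% of all probes tested were called in either direction. The part of these markers in the receptor differences was not tested, and fewer cells of a type and less RNA per cell cannot be told apart in bulk RNA.

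The genes whose pattern over the 6 arrays was most like a receptor's were found for the largest difference in each direction among probes detected on all arrays, as the root mean square difference of log2 values centred on each probe's mean. Among 9907 other genes, those nearest to Nr6a1 were AU040320 (0.0341), Phactr4 (0.0389) and Hyi (0.0528). Those nearest to Nr5a2 probe ILMN_2634389 were Laptm5 (0.205), Klf5 (0.221) and Nanog (0.224). This measure describes the arrays, where most of the pattern is the difference between the lines.

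**Figure D4:**
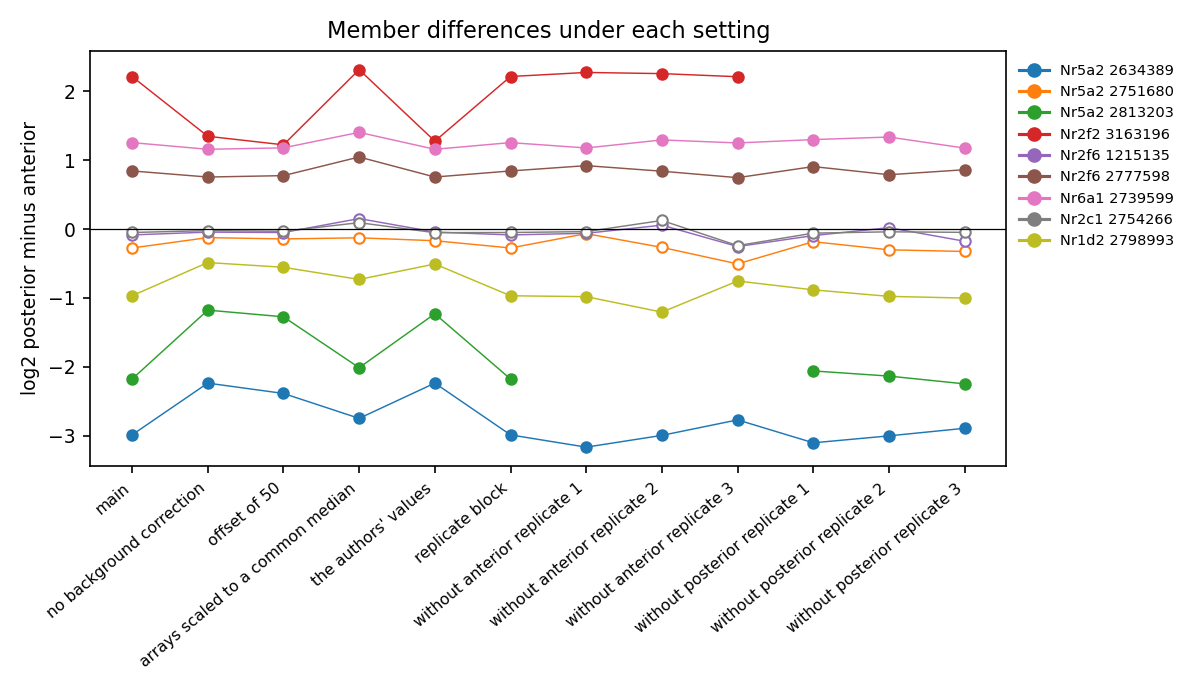
Log2 difference, posterior minus anterior, of the 9 tested probes under the reported processing ("main") and 11 of the alternatives. Filled points were called and open points not, and a gap marks a setting that did not test the probe. The 6 called probes keep their direction at every point shown.

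Each of the 6 called probes stayed called, in the same direction, under every alternative that tested it. Nr2f2 was not tested without any 1 posterior array, nor Nr5a2 probe ILMN_2813203 without any 1 anterior array, since too few arrays then detect them. For Nr5a2 probe ILMN_2634389 the difference ran from -3.17 to -2.24 over the alternatives, and for Nr6a1 from 1.16 to 1.41. That of Nr2f6 probe ILMN_2777598 ran from 0.75 to 1.05 and that of Nr1d2 from -1.21 to -0.49, with a highest adjusted p of 0.0428. With arrays scaled to a common median, the median difference of all tested probes went from -0.04 to 0.12 and the share of calls that were higher from 49.8% to 69.5%.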

How the data were processed

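Per the labels' protocols, Trizol-extracted RNA was amplified into biotinylated cRNA. The deposited signal table holds linear intensities, neither background subtracted nor normalized, and, per the file headers, detection p-values. The authors' log2 table holds 18312 probes and equals the quantile-normalized log2 intensities of the probes that 1 array or more detected at p-values under 0.01, to within 5e-09. Per the submitters' processing notes limma was used, with no version given.

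Intensities were normalized here with neqc of limma 3.58.1 (R 4.3.3, offset 16, which shrinks differences of dim probes) and compared with lmFit and eBayes. The number of arrays limits the precision. Gene symbols came from the platform annotation of the authors' probes: 15550 had 1 symbol, 9 several and 2753 none. Members, lists and tests were chosen with earlier results of these data known. Named are all member probes, up to 3 called genes a direction from each list, every other nuclear receptor tested and the 3 genes nearest in pattern to 2 members. The blood marker list had no named gene. All motifs searched in promoters are reported. Alternatives varied background, offset, scaling, filter, variance model and arrays. The steps were tested on simulated data. Figures used matplotlib 3.10.9.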

Additional observations from a re-analysis of the deposited data

How the results depend on the processing

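The number of tested probes called was 7762 and ran from 5571 to 8658 over the alternatives that keep all arrays, and from 5157 to 7397 with 1 array left out, lowest without posterior replicate 2. The number of receptor probes called was 6 and ran from 4 to 7, and was 5 with any 1 array left out, because fewer probes passed the detection filter. Of 79 differences of named probes and genes, 6 changed sign under an alternative, none of them called, and 13 called ones lost the call under at least 1 alternative: Abcg1, Arntl, Bag1, Bhlhe40, Dnajb1, Esrp1, Map2, Notch1, Pparg, Ptges3, Sox17, Trim28 and the mean of the Nr2f6 probes. With arrays scaled to a common median Nr2f6 probe ILMN_1215135 turned to 0.15, Nr2c1 to 0.093, Rxra to 0.27, Esrra to 0.066 and Ppard to 0.0022. With 1 array left out these ran from -0.25 to 0.057 for Nr2f6, from -0.24 to 0.13 for Nr2c1 and from -0.16 to 0.10 for Rxra, and Rara ran from -0.094 to 0.30. The cause was not tested. Counts of called genes moved by over 1.5 times for the other nuclear receptors (4, lowest 2), coregulators (5, from 3 to 9), chaperones (7, lowest 2), liver X receptor targets (8, lowest 5), clock genes (2 lower, from 1 to 4 in all, with 2 higher and 0 lower when arrays are scaled to a common median), COUP-TF linked genes (7, lowest 2) and the limb mesenchyme (6, lowest 2), endoderm (4, lowest 0), epithelial (5, lowest 3), endothelial (3, lowest 1) and neural markers (2, lowest 1). Requiring detection in both lines removes genes that no array of 1 line detected. Requiring it on all arrays removes those that any array did not detect. The filter on at least 1 array of each group was added after the data were seen, and so were the list counts and list genes. Arrays share replicate numbers 1 to 3, and same-numbered arrays deviated together only in part (r = 0.29, 0.16 and -0.08). With 3 arrays a line these values cannot settle whether the numbers pair the arrays, and the main fit did not pair them. With a replicate block 7827 probes and the same number of receptor probes, 6, were called, and coregulators rose to 9 calls. Probes near the detection limit have differences that background correction and the offset set in size.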
